A study of Mus musculus with 19 samples.

Results

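Translational efficiency, the number of ribosome footprints on an mRNA relative to the amount of that mRNA, was compared between B16-F10 cells with a Mettl5 knockout (KO) and B16-F10 cells with a scrambled control (SCR). B16-F10 is a melanoma line derived from C57BL/6 mice, and both genotypes were grown in culture. Footprints came from cells treated with cycloheximide at 100 µg/ml for 8 min, whose lysate was digested with RNase for 40 min at 22 C, and input RNA came from cells of the same 2 genotypes after depletion of ribosomal RNA. Each genotype had 2 footprint and 2 input RNA libraries, which are 8 of the 19 samples of the study. The genes described are the 10287 of 55359 in the files with at least 50 counts in each of the 8 libraries, of which 9493 are protein coding in RefSeq. The labels do not say how many clones the knockout or the control represents, whether replicate libraries came from separate cultures, or whether footprints and input RNA came from the same lysate. The p-values therefore measure only the spread between these libraries, which may be technical.

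METTL5 is a methyltransferase that places an N6-methyladenosine on 18S ribosomal RNA, and it is stable only as a complex with TRMT112, which also serves other methyltransferases. During translation the ribosome shields a short stretch of mRNA from nuclease, so that sequenced footprints count ribosomes on an mRNA. A footprint change can follow a change of the mRNA itself, and efficiency, the interaction of genotype and assay in a model of both kinds of library, asks whether footprints moved more or less than the mRNA did. All values are relative to the other genes of the same library, so a change of the same size in every gene cannot be seen here.

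Library totals were 38968000 to 48692578 counts in input RNA, 28059683 and 31301806 in SCR footprints and 14555963 and 21366608 in KO footprints, so the KO footprint libraries were the shallowest. Levels below are counts-per-million (CPM) of the library size after scaling by trimmed mean of M values (TMM). They are not divided by transcript length, so they compare a gene between libraries and not with other genes. Where a sentence sets 2 values against 2 others, the first 2 are the SCR and the last 2 the KO libraries. Log2 fold changes are KO minus SCR with the standard error (SE) of the fit, and a gene is called, or said to rise or fall, at a Benjamini-Hochberg adjusted p below 0.05 of edgeR's quasi-likelihood test over the 23211 genes tested. The cells carried high levels of melanocyte markers, with the 8 markers Mitf, Sox10, Pax3, Tyr, Tyrp1, Dct, Pmel and Mlana together at 13179 to 13699 CPM of the library total in input RNA and 44615.5 to 53548 in footprints. The 8 markers of blood cells summed to 1.81 to 3.81 CPM of the library total in input RNA and 4.40 to 10.1 in footprints, and Itgam and Tyrobp were at 0 in all 8 libraries.

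Mettl5 mRNA was lower in the KO cells. It was at 7.09 and 7.32 CPM in the SCR against 5.02 and 4.85 CPM in the KO input RNA, and at 19.5 and 18.2 CPM in the SCR against 14.1 and 14.9 CPM in the KO footprints. The groups did not overlap in either assay. The log2 fold change was -0.55 ± 0.10 in input RNA (SE, adjusted p = 0.0207) and -0.38 ± 0.10 in footprints (adjusted p = 0.0785), and efficiency differed by 0.17 ± 0.14 (adjusted p = 0.605). Reads from the gene remain in the KO libraries, and the counts do not show which part of it they cover. In bulk libraries fewer cells with an mRNA and less of it per cell cannot be told apart. Trmt112, the partner of METTL5, went the other way in input RNA, from 11.5 and 11.7 to 21.8 and 18.8 CPM, with footprints at 11.7 and 17.3 CPM in SCR against 11.7 and 11.1 CPM in KO. Its RNA rose by 0.81 ± 0.17 (adjusted p = 0.0298), and its efficiency fell with a log2 change of -1.16 ± 0.25 (adjusted p = 0.0498), a call kept in 7 and lost in 13 alternative fits. Mettl5 overlaps Ssb and Trmt112 overlaps Esrra and Prdx5 in RefSeq, and the sources used here do not say whether counting used the strand.

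Efficiency was lower in the KO cells for 697 of the 10287 genes and higher for 119. That is 6.78% and 1.16% of them, against 3.40% and 0.788% of all 23211 genes tested. In the assays taken alone, footprints were lower for 1002 genes (9.74%) and higher for 266 (2.59%), and input RNA was lower for 625 (6.08%) and higher for 1180 (11.5%). Counts of calls in the gene lists below are to be read against these shares of all genes described. Over the 9493 coding genes the median efficiency change was -0.09, with 5% of genes below -0.64 and 5% above 0.42, and the median SE of a gene was 0.12. A change of at least 1 on the log2 scale was called in 45 coding genes that fell and 14 that rose. For all 816 called genes the 4 ratios of a KO footprint library to a KO RNA library lay on one side of the 4 SCR ratios. The calls were made on the same libraries, so this is not separate support for them. The ratios of Mettl5, which was not called, were also apart.

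The split into lower and higher calls depends on the scaling. With library totals in place of TMM the same test called 910 genes higher and 232 lower, and the median efficiency change of coding genes moved from -0.09 to 0.13, a shift of 0.22. When only the genes described were fitted it called 619 higher and 1380 lower, and when only coding genes were fitted 459 higher and 877 lower. All 130 called genes of the rule for naming genes kept their direction under every alternative tried, these included. Their KO ratios lay apart from their SCR ratios in the same libraries, so this agreement is not separate support for them. The number of calls rests on the input RNA libraries. Without the first SCR input RNA library 2 genes were called, and without the second SCR or the first KO input RNA library none was, while 2842, 2761 and 2668 genes had an unadjusted p under 0.05 in edgeR's test in these 3 fits. Every efficiency call named below was lost in these 3 fits, except that Cntn1 was still called without the first SCR input RNA library. Leaving out one of the other libraries gave 590 to 944 calls. The 1805 calls of input RNA became 109, 199 and 144 without these same 3 libraries and 1028 without the second KO input RNA library, and the 1268 footprint calls, in the shared fit, became 631, 629, 827 and 834.

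**Figure D1:**
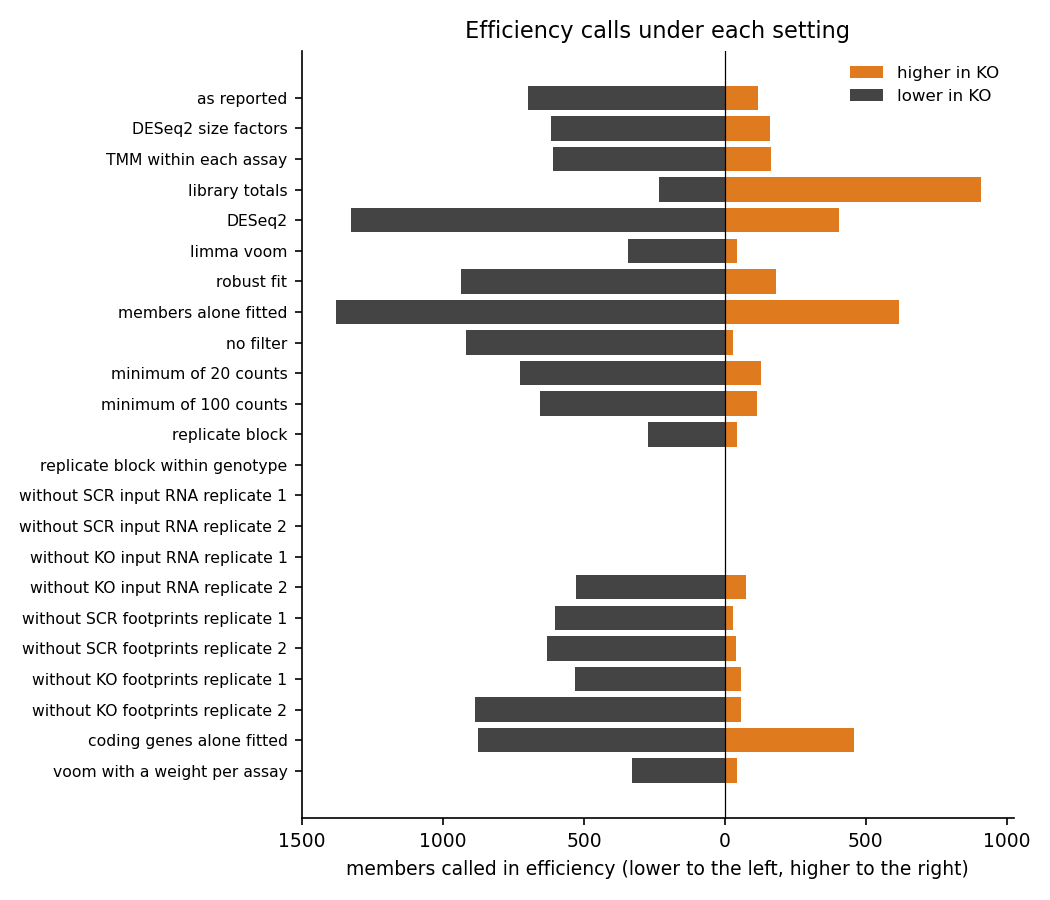
Number of genes called in efficiency under each setting. Bars to the left count genes lower in KO cells and bars to the right genes higher in KO cells, over the 10287 genes with at least 50 counts per library (20 or 100 where the setting says so). The reported fit has 697 lower and 119 higher, library totals give 232 lower and 910 higher, and the 3 fits without an SCR or the first KO input RNA library have 2 calls at most.

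A lower efficiency can come from fewer footprints or from more mRNA, and these were told apart by testing the sum of the footprint and the RNA change. Where the sum passed the threshold in the direction of the efficiency change the call was led by footprints, and where it passed in the other direction by RNA. Of the 637 coding genes with lower efficiency, 136 were led by footprints, 70 by RNA and 431 could not be separated. Of the 114 coding genes with higher efficiency, 8 were led by footprints, 45 by RNA and 61 could not be separated. In the 431 unseparated falls footprints fell in 200 and RNA rose in 234, and the median change was -0.32 in footprints and 0.31 in RNA. Both assays were called in opposite ways in 55 of the 637 falls and 4 of the 114 rises. Neither assay passed alone in 52 of the falls and 11 of the rises.

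Changes of mRNA were in most cases not matched by a called change of footprints. Among 1055 coding genes with higher RNA, footprints rose in 93, fell in 55 and were not called in 907, and the median change was 0.41 in RNA and 0.027 in footprints. Of 620 coding genes with lower RNA, footprints fell in 218, rose in 4 and were not called in 398, with medians of -0.43 in RNA and -0.22 in footprints. These genes were chosen on their RNA change, which also enters the efficiency. Across the 9493 coding genes the footprint and RNA changes had a Pearson's r of 0.28 and a Spearman's rho of 0.20. Genes are not independent replicates, and the 2 axes come from separate libraries. Footprints varied more between libraries than RNA did, with a biological coefficient of variation of 8.55% against 6.41%.

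**Figure D2:**
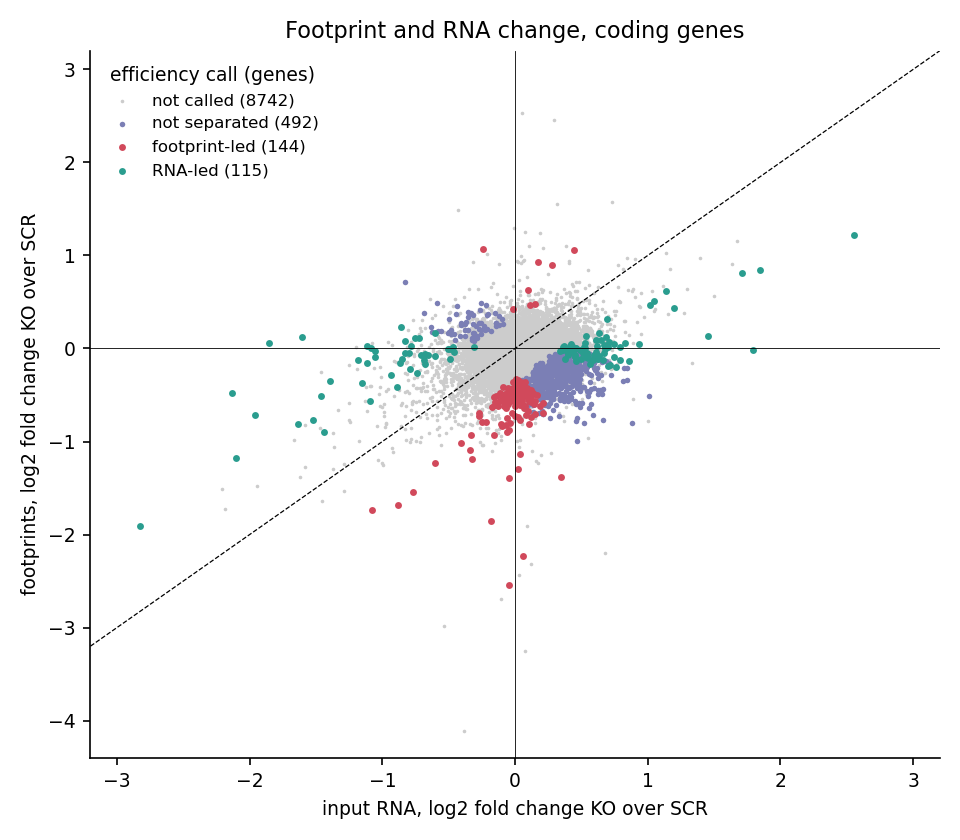
Log2 fold change, KO over SCR, of input RNA (horizontal) and footprints (vertical) for the 9493 coding genes, each point a gene. Vertical distance from the dashed diagonal is the efficiency change, and colours mark the 144 calls led by footprints, the 115 led by RNA and the 492 that were not separated. Most footprint-led points lie near the vertical axis and below 0, and most RNA-led points near the horizontal axis.

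The proteins of the ribosome were the lists with the most lower calls. The mRNAs of these proteins begin with a stretch of pyrimidines, the terminal oligopyrimidine (TOP) motif, through which their translation is known to be controlled together. Of 34 small-subunit genes, all measured, efficiency fell in 16 and rose in none, RNA rose in 21 and fell in none, and footprints fell in 5. The list had a median change of -0.59 in efficiency, 0.38 in RNA and -0.17 in footprints. Of 47 large-subunit genes measured of 49 in the files, efficiency fell in 22 and rose in none, RNA rose in 31, and footprints fell in 3, with medians of -0.49, 0.40 and -0.15. RNA was above the SCR level in 34 of 34 and 46 of 47 genes, called or not. The median RNA change of all coding genes was itself above 0, at 0.034. Against the median of all coding genes, efficiency of the small-subunit list lay at -0.50 and ranged from -0.56 to -0.39 over the alternatives, and that of the large-subunit list lay at -0.40 and ranged from -0.46 to -0.37. These ranges reuse the same libraries and do not measure the spread of replicates. Taken separately in the libraries numbered 1 and those numbered 2, scaled by library totals, these differences had a standard deviation of 0.32 and 0.17. With library totals the median changes of the 2 lists were -0.37 and -0.27 in efficiency and -0.034 and -0.017 in footprints. Ribosomal protein genes have many near-identical pseudogenes, and reads could be split among them.

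Rps29 had the smallest p of the small-subunit genes. Its RNA was at 57.1 and 61.7 CPM in SCR against 82.02 and 80.98 CPM in KO cells, and its footprints were at 113 and 117 CPM in SCR against 73.7 and 78.5 CPM in KO cells. Both KO libraries were above both SCR libraries in RNA and below them in footprints. Efficiency changed by -1.05 ± 0.085 (SE, adjusted p = 0.0140), from 0.46 in RNA (adjusted p = 0.00717) and -0.60 in footprints (adjusted p = 0.00367). Rps21, Rps7 and Fau, whose product is cleaved to give a ribosomal protein, likewise rose in RNA and fell in footprints, with efficiency changes of -1.07, -0.65 and -0.83. The largest fall in the small subunit was in Rps28, -1.17 ± 0.20 (adjusted p = 0.0294), with RNA at 26.2 and 29.7 CPM in SCR against 42.03 and 41.02 CPM in KO and footprints at 32.7 and 33.2 against 17.99 and 25.3 CPM.

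In the large subunit Rpl18 was called in both assays in opposite ways. Rpl18 RNA was at 215 and 212 CPM in SCR against 312 and 268 CPM in KO, and its footprints at 125 and 124 against 95.4 and 99.6 CPM. Rpl13 was led by RNA, at 182 and 182 CPM in SCR against 304 and 272 CPM in KO, while its footprints were at 27.6 and 29.96 against 25.6 and 26.96 CPM, close together but without overlap. Efficiency changed by -0.79 ± 0.11 in Rpl18 and -0.79 ± 0.10 in Rpl13 (adjusted p = 0.0205 and 0.0205). Rpl27a and Rpl6 changed by -0.82 and -0.58. The range within the subunit was wide. Rpl37a, Rpl37 and Rpl41 had changes of -1.43, -1.14 and -1.002, whereas Rpl4 and Rpl10 stood at 0.020 (adjusted p = 1.00) and 0.26 (adjusted p = 0.515). Both sets were named after their values were seen.

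The start of these genes was read from RefSeq (GRCm38.p6) to show the pyrimidine stretch on which the TOP motif rests. Each line holds 10 bases before and 20 bases from the annotated start, 5′ to 3′ on the gene's strand, with a run of at least 8 C or T in capitals where the window holds one. Rpl27a, Fau and Rpl18 are shown as called genes with a run, and Rps7 and Rpl13 as called genes without one.
Rpl27a, chr7:109519185-109519214, plus strand: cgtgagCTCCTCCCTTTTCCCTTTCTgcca
Fau, chr19:6057937-6057966, plus strand: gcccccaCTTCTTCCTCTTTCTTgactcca
Rpl18, chr7:45718061-45718090, plus strand: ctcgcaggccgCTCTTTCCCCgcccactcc
Rps7, chr12:28635934-28635963, minus strand: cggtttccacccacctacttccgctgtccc
Rpl13, chr8:123102340-123102369, plus strand: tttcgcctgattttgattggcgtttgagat

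A run of at least 8 C or T on the gene's strand was found in 26 of 62 ribosomal protein genes with a promoter in the table (41.9%). It was found in 3517 of 27025 genes (13%) over the whole table, counting a gene once if any of its listed starts had a run, and in 1073 of 7768 coding genes described here (13.8%). Within the ribosomal proteins, 9 of 31 with lower efficiency (29%) and 17 of 31 not called (54.8%) had a run. Among all coding genes the share was 15.5% of 516 with lower efficiency and 17.8% of 90 with higher efficiency. Annotated starts can lie some bases from the start used in these cells, so a window without a run shows only that the letters are not there.

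Fewer calls were made in the other parts of the translation machinery. Of 16 other mRNAs known to carry a TOP motif, RNA rose in 7, and efficiency fell in 1, Hnrnpa1, an RNA-binding protein, with a change of -0.39 (adjusted p = 0.0386). That call is 6.25% of these mRNAs, and their median efficiency change was -0.16. Among 45 initiation factors RNA rose in 11 and efficiency fell in 2, or 4.44% against 6.78% of all genes described. One was Eif6, which keeps the large subunit from joining, at -0.76 ± 0.13 (adjusted p = 0.0322), and the other Eif2b4, a subunit of the exchange factor for eIF2, at -0.57 ± 0.11 (adjusted p = 0.0361). None of 17 elongation and termination factors was called in efficiency in the reported edgeR fit or by limma voom. DESeq2 called 4 lower, and 1 was higher and 5 lower at an unadjusted p under 0.05 in the reported fit. Gtpbp1 had the smallest p with -0.40 (adjusted p = 0.0534) and was called in 3 alternative fits. Of 20 cytosolic aminoacyl-tRNA synthetases, which charge tRNAs, efficiency fell in 3, with Aars led by RNA (165 and 163 CPM in SCR against 242 and 233 CPM in KO) and Vars and Mars1 at -0.70 and -0.49. The median efficiency change of these lists lay between -0.16 and -0.11. With library totals it turned positive, at 0.055 to 0.11, but stayed below the median of all coding genes, which was then 0.13.

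In 40 genes of ribosomal RNA modification and small-subunit assembly, RNA rose in 17 and fell in 1, and efficiency fell in 9, Trmt112 among them. Bud23 and Emg1, methyltransferases of small-subunit RNA, had efficiency changes of -0.69 ± 0.11 (adjusted p = 0.0238) and -0.72 ± 0.13 (adjusted p = 0.0352). Bud23, which like METTL5 works with TRMT112, was at 42.5 and 43.7 CPM in SCR against 64.5 and 56.5 CPM in KO RNA, and at 40.9 and 39.6 against 35.6 and 34.6 CPM in footprints. The methyltransferase Nop2 and the assembly factor Rrp12 changed by -0.50 and -0.52 in efficiency, and Rrp12 was led by RNA. The list's median was -0.21, or 0.0056 with library totals, where the median of all coding genes was 0.13. Of 77 mitochondrial ribosomal proteins, RNA rose in 23, footprints rose in 2 and fell in 3, and efficiency fell in 6, or 7.79% against 6.78% of all genes described. Mrpl38 was led by footprints, at 103 and 97.2 CPM in SCR against 71.4 and 73.6 CPM in KO, with RNA at 32.2 and 31.9 against 33.02 and 33.7 CPM. Mrps17 was led by RNA, and Mrpl37 and Mrpl18 were not separated, with efficiency changes of -0.46, -0.56 and -0.62.

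**Figure D3:**
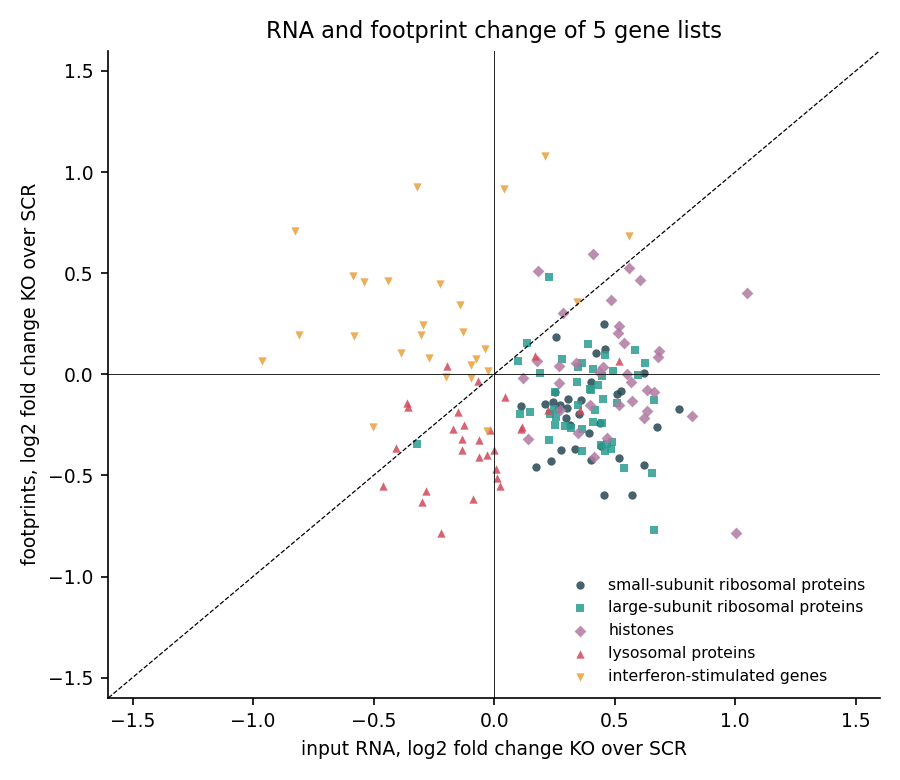
Log2 fold change, KO over SCR, of input RNA (horizontal) and footprints (vertical) for the genes of 5 lists, each point a gene. The dashed line marks equal change in both assays. Most ribosomal proteins and histones lie to the right of 0 in RNA and below the line (efficiency below 0 in 34 of 34, 45 of 47 and 32 of 35), most lysosomal proteins below 0 in footprints, and all but 1 of 27 interferon-stimulated genes above the line. Efficiency of the ribosomal proteins and histones was below the median of all coding genes, -0.09, in 33 of 34, 43 of 47 and 31 of 35.

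In the 136 falls led by footprints, the rule for the class fixes the sign of the footprint change, which was called in all 136. RNA fell in 9 of these genes and rose in none. These genes had a median change of -0.56 in footprints and 0.0072 in RNA, and they were well covered, with a median of 104.6 CPM in footprints against 34.3 for all coding genes. Slc39a7, which carries zinc out of the endoplasmic reticulum and Golgi, had footprints at 288 and 306 CPM in SCR against 77.8 and 49.5 CPM in KO cells. Its RNA was at 52.95 and 45.9 CPM in SCR against 51.7 and 51.6 CPM in KO and overlapped. Efficiency changed by -2.29 ± 0.25 (adjusted p = 0.0205). Cubn, which encodes the endocytic receptor cubilin, had footprints at 99.8 and 110.5 CPM in SCR against 31.04 and 27.4 CPM in KO, with RNA at 74.8 and 78.2 against 62.2 and 72.4 CPM. The efficiency of Cubn changed by -1.67 ± 0.14 (adjusted p = 0.0140), with no overlap of the footprint groups. Of the 130 called genes taken by the rule for naming, 51 overlap another RefSeq locus, Cubn and Pmel among them, so some of their reads could belong to a neighbour.

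Dicer1, the nuclease that makes microRNAs, had the largest fall led by footprints. It was at 6074 and 2994 CPM in SCR against 621 and 939 CPM in KO footprints, and at 151 and 158 against 147 and 152 CPM in input RNA. The 2 SCR footprint libraries differed by about as much as some called changes, but both lay above both KO libraries. The efficiency change was -2.49 ± 0.45 (adjusted p = 0.0330). Its ratio of footprint CPM to RNA CPM was 29.3 in SCR, against a median of 0.970 over coding genes and all libraries, and the counts do not show where in the gene these footprints lie.

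The other genes named here span several functions. Tsen54, a subunit of the tRNA splicing nuclease, went from 9.13 and 11.2 to 4.60 and 3.32 CPM in footprints, and Plxna4, a semaphorin receptor, from 13.3 and 13.6 to 5.69 and 4.66 CPM. Adnp, a chromatin regulator, was at 28.9 and 25.7 CPM in SCR against 14.3 and 8.39 CPM in KO footprints, with RNA at 182 and 197 against 191 and 193 CPM. Efficiency changed by -1.73, -1.34 and -1.32 in these 3 genes. Ptgir, the prostacyclin receptor, and Sema3g, a secreted semaphorin, changed by -1.18 and -0.87. Atp13a2, a lysosomal polyamine transporter, was at 361 and 347 CPM in SCR against 203 and 201 CPM in KO footprints, with efficiency changed by -0.91 ± 0.095 (adjusted p = 0.0205). Srxn1, which restores oxidized peroxiredoxins, had footprints at 12.2 and 10.5 against 7.03 and 6.99 CPM and an efficiency change of -0.91. In all 10 of these genes both KO footprint libraries were below both SCR libraries. The genes were chosen on the same libraries, so this is not separate support.

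Several lists of membrane and secreted proteins held calls led by footprints, of which there were 145 among all 10287 genes described. The lists of MHC class I presentation and of ligands for immune cells held none. Of 30 lysosomal enzymes and membrane proteins, footprints fell in 12 and rose in none, RNA fell in 3 and rose in 2, and efficiency fell in 4. Grn, which encodes progranulin, was at 1804 and 1791 CPM in SCR against 1103 and 983 CPM in KO footprints, and at 197 and 201 against 178 and 164 CPM in RNA. Gaa, the acid glucosidase, was at 2280.4 and 2470.3 CPM in SCR against 1596 and 1502 CPM in KO footprints, and Neu1, a sialidase, at 162 and 175 against 115 and 115 CPM. These 3 were led by footprints, with efficiency changes of -0.57, -0.53 and -0.58, while Gusb (-0.53) was not separated. The list's median was -0.28 in efficiency and -0.30 in footprints, or -0.059 and -0.16 with library totals.

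Of 25 genes of the unfolded protein response and of degradation from the endoplasmic reticulum, footprints fell in 10 and rose in none, RNA fell in 1, and efficiency fell in 4. Atf6b, a membrane-bound stress sensor, was at 98.9 and 100.4 CPM in SCR against 72.5 and 70.3 CPM in KO footprints with RNA at 67.1 and 68.7 against 75.1 and 74.1 CPM. Syvn1, the ubiquitin ligase of this degradation, was also led by footprints, and Derl1 and Hyou1 were not separated. The 4 efficiency changes were -0.62 in Atf6b, -0.54 in Syvn1, -0.40 in Derl1 and -0.47 in Hyou1. The list's median was -0.24 in efficiency and -0.24 in footprints, or -0.017 and -0.096 with library totals, where the medians of all coding genes were 0.13 and 0.093. The 17 measured zinc transporters and metallothioneins had lower efficiency in 7, and footprints fell in 6. Besides Slc39a7, the importer Slc39a1 was led by footprints, at 143 and 137 CPM in SCR against 94.9 and 91.1 CPM in KO. The zinc-binding Mt2 had an efficiency change of -1.46 ± 0.27 (adjusted p = 0.0351), with footprints at 22.5 and 25.6 against 8.70 and 15.1 CPM. Slc39a14 and Slc30a5 changed by -0.47 and -0.46 in efficiency.

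Extracellular matrix genes were called in both directions and in both assays. Of 27 measured, footprints fell in 14 and rose in 2, RNA fell in 11 and rose in 5, and efficiency fell in 6 and rose in 2. The list's median efficiency change was -0.26, or -0.039 with library totals, where that of all coding genes was 0.13. Fbln1, which encodes fibulin, was at 1391 and 1572 CPM in SCR against 946 and 877 CPM in KO footprints and at 141 and 145 against 159.9 and 157 CPM in RNA, with an efficiency change of -0.85 ± 0.11 (adjusted p = 0.0205). Col5a1, a fibrillar collagen chain, was at 195 and 193 against 130.3 and 126 CPM in footprints and changed by -0.54 in efficiency. Col4a2, a basement membrane collagen chain, fell in both assays and more in footprints, from 59.3 and 59.9 to 28.6 and 27.8 CPM in RNA and from 245 and 217 to 70.4 and 68.01 CPM in footprints. Its partner chain Col4a1, which shares the locus, fell from 124 and 126 to 50.97 and 51.1 CPM in RNA and from 570.4 and 529 to 193 and 188 CPM in footprints, and its efficiency change of -0.24 was not called (adjusted p = 0.134). The 10 markers of fibroblasts and endothelium, some of which these cells may make, summed in input RNA to 63.7 and 65.1 CPM of the library total (SCR) against 52.3 and 54.4 (KO), and in footprints to 259.3 and 293 (SCR) against 132 and 157 (KO). None of the 10 was at 0 in all libraries, but Dcn, Cdh5 and Kdr were at 0 in all 4 input RNA libraries and Pecam1 stayed at or below 0.464. The lower sum rests on Postn. Without it the other 9 summed to 31.2 and 28.9 (SCR) against 48.1 and 49.5 (KO) in input RNA, higher in the KO libraries, and to 81.2 and 81.6 against 96.2 and 78.5 in footprints, which overlapped. Their part in the matrix result was not tested.

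Of 21 melanocyte genes, footprints fell in 7 and rose in 1, RNA fell in 5 and rose in 5, and efficiency fell in 4. Pmel, the protein of the melanosome fibrils, was at 14342 and 16056 CPM in SCR against 9512 and 8296 CPM in KO footprints, with RNA at 2559 and 2564 against 2679.8 and 2589.9 CPM. The efficiency of Pmel changed by -0.81 ± 0.15 (adjusted p = 0.0347), led by footprints. Cited1, a transcriptional coactivator, and Kit, the receptor of stem cell factor, fell in both assays and more in footprints. Cited1 footprints were at 59.2 and 54.96 CPM in SCR against 17.6 and 17.9 CPM in KO, and Kit footprints at 46.7 and 52.5 against 22.6 and 19.7 CPM. Mlana, a melanosome membrane protein, rose in RNA from 247 and 273 to 419.8 and 368 CPM with footprints at 1049.8 and 1057 against 941 and 953 CPM, an efficiency change of -0.75. The list's median footprint change was -0.13, or 0.010 with library totals, where that of all coding genes was 0.093.

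Of the rises of efficiency, 8 in coding genes were led by footprints. Gsdmc, a pore-forming gasdermin, was at 80.1 and 84.4 CPM in SCR against 149 and 156 CPM in KO footprints, and at 140.3 and 132 against 166 and 164 CPM in RNA. Its efficiency rose by 0.62 ± 0.078 (adjusted p = 0.0205). Lamb1, a laminin chain, rose in both assays, from 36.3 and 35.5 to 78.8 and 70.9 CPM in footprints and from 7.72 and 7.95 to 11.1 and 10.3 CPM in RNA. Samd9l, an interferon-induced antiviral protein, had the largest rise of this kind, 1.31 ± 0.17 (adjusted p = 0.0205), with footprints at 8.28 and 8.73 CPM in SCR against 15.98 and 19.6 CPM in KO. Mat2a, which makes S-adenosylmethionine, the methyl donor of METTL5 and other methyltransferases, was at 98.7 and 98.8 CPM in SCR against 162 and 143 CPM in KO footprints. The RNA of Mat2a was at 421 and 417 against 444 and 452 CPM, and its efficiency change was 0.53 ± 0.095 (adjusted p = 0.0328). Shisa2, Wsb1, Xrcc5 and Hnrnpd rose by 0.76, 0.44, 0.36 and 0.33. Shisa2 was at 4.95 and 5.22 CPM in SCR against 9.96 and 9.49 CPM in KO footprints. The footprint groups did not overlap in any of the 8 genes, which were chosen on these same libraries.

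**Figure D4:**
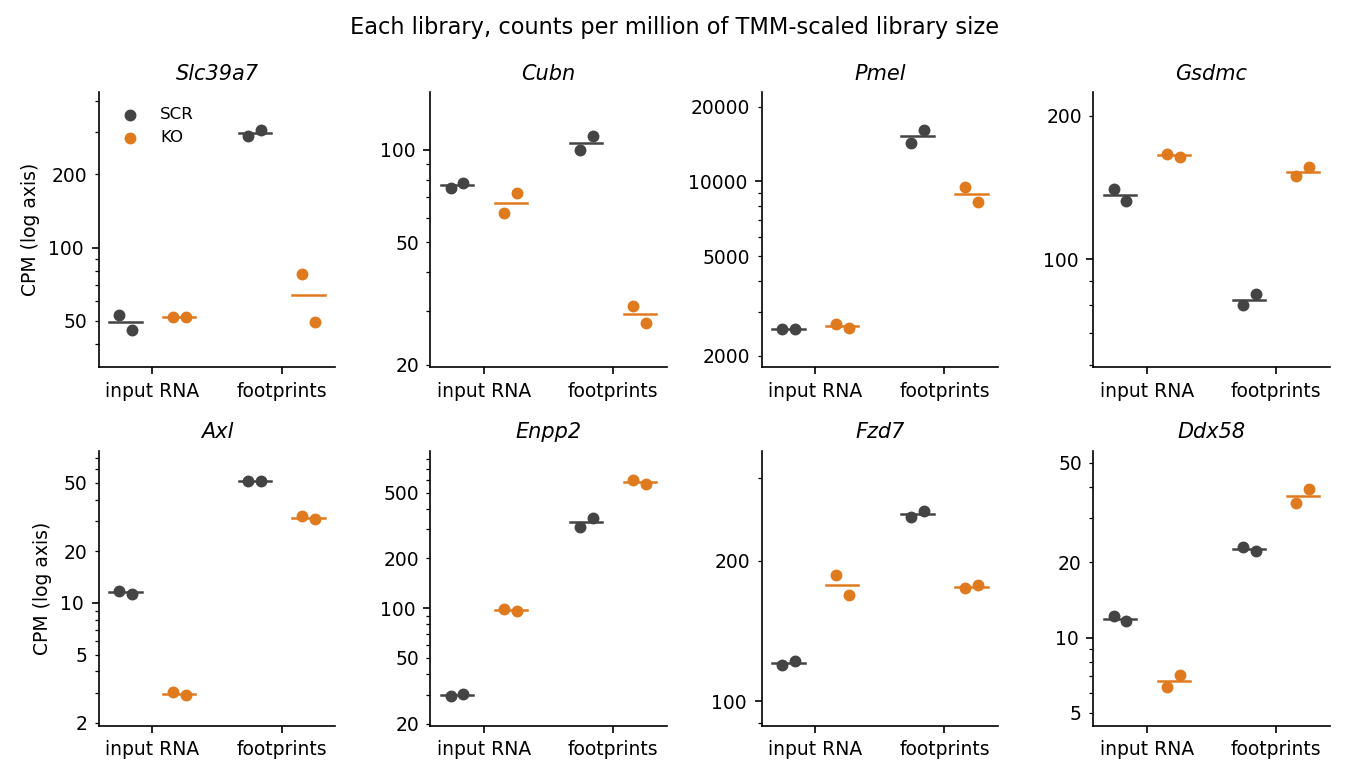
Level of 8 genes in each library, in CPM of the TMM-scaled library size on a log axis, for input RNA and footprints. Points are libraries and short lines are the means of the 2 libraries of a group. In Slc39a7, Cubn and Pmel footprints differed between genotypes and RNA was similar, in Axl and Enpp2 RNA differed more than footprints, and in Fzd7 and Ddx58 the assays moved in opposite ways.

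Rises led by RNA were genes whose mRNA fell while footprints fell less or were not called. Axl, a receptor tyrosine kinase, fell from 11.8 and 11.3 to 3.02 and 2.89 CPM in RNA and from 51.4 and 51.5 to 31.9 and 30.9 CPM in footprints. That is -1.96 ± 0.073 in RNA against -0.71 ± 0.067 in footprints (adjusted p = 0.000134 and 0.00285), and efficiency rose by 1.25 ± 0.099 (adjusted p = 0.0140). Pygm, the muscle glycogen phosphorylase, fell from 6.43 and 6.59 to 1.47 and 1.48 CPM in RNA and from 32.3 and 31.6 to 20.999 and 24.8 CPM in footprints. Cntn1, a cell adhesion protein, was at 5.82 and 7.47 CPM in SCR against 1.81 and 1.86 CPM in KO RNA, while its footprints stood at 36.5 and 39.96 against 40.6 and 39.4 CPM. With 1.92 ± 0.18 it had the largest called rise of efficiency among the named genes (adjusted p = 0.0143).

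Footprints were nearly level in several other genes of this class. Cp, the copper protein ceruloplasmin, fell from 90.6 and 96.6 to 42.02 and 46.1 CPM in RNA with footprints at 495 and 527 CPM in SCR against 528 and 497 CPM in KO. S100a11, a calcium-binding protein, and Ehd2, a protein of caveolae, changed in RNA by -1.11 and -1.05 with footprint changes of 0.031 and -0.026. Capn6, Map2, Fstl1 and Plat, the tissue plasminogen activator, had efficiency changes of 1.73, 1.09, 1.06 and 1.04. RNA levels in KO cells were low in some, at 1.09 and 1.12 CPM in Plat, 1.47 and 1.48 CPM in Pygm and 1.54 and 1.66 CPM in Fstl1. The 45 genes of this class had a median RNA level of 22.6 CPM, against 38.4 for all coding genes. Postn, which encodes periostin, fell from 25.4 and 26.5 to 3.45 and 3.87 CPM in RNA and from 238 and 290.3 to 74.3 and 66.5 CPM in footprints, with an efficiency change of 0.92 ± 0.16 (adjusted p = 0.0303).

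In the 70 falls led by RNA, the rule for the class fixes the sign of the RNA change, which was called in all 70. Footprints rose in 7 of these genes and fell in none. Zc3h10, a zinc finger protein, rose from 4.99 and 6.50 to 20.1 and 19.9 CPM in RNA, and its footprints were at 8.23 and 7.63 CPM in SCR against 7.61 and 8.04 CPM in KO. Efficiency changed by -1.81 ± 0.21 (adjusted p = 0.0205). Enpp2, which encodes autotaxin, the enzyme that makes lysophosphatidic acid, rose from 29.4 and 30.3 to 99.2 and 96.1 CPM in RNA and from 311 and 351 to 596 and 566 CPM in footprints. The rise was 1.71 ± 0.071 in RNA and 0.81 ± 0.069 in footprints, and efficiency changed by -0.90 ± 0.098 (adjusted p = 0.0205). Emilin1, an elastic fibre protein, rose from 2.17 and 2.69 to 14.1 and 14.5 CPM in RNA and from 5.28 and 4.91 to 13.1 and 10.7 CPM in footprints. Bcan, a brain proteoglycan, and Panx1, a channel protein, had footprint changes of 0.14 and -0.14 beside RNA changes of 1.45 and 0.86. Fzd1, Rcc1l, Ifrd2, Osgin1 and Art3 changed in efficiency by -0.96, -0.92, -0.89, -0.89 and -1.001. Art3 overlaps Cxcl10 and Cxcl11 in RefSeq.

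Some genes were called in both assays in opposite ways, Rps29 and those below among them. Fzd7, a Wnt receptor, rose from 119.8 and 122 to 186 and 169 CPM in RNA and fell from 248 and 255 to 175 and 177 CPM in footprints. Its efficiency changed by -1.07 ± 0.084 (adjusted p = 0.0140). Hspg2, which encodes the matrix proteoglycan perlecan, was at 581 and 595 CPM in SCR against 733 and 712 CPM in KO RNA and at 1270.3 and 1183 against 871 and 887 CPM in footprints, with an efficiency change of -0.78. Por, the reductase of cytochrome P450 enzymes, was at 54.9 and 58.8 against 79.0 and 71.1 CPM in RNA and at 321 and 349 against 234 and 218 CPM in footprints. Gas1, a membrane protein linked to growth arrest, had an efficiency change of -1.68 ± 0.19 (adjusted p = 0.0205). Abcb8, a mitochondrial transporter, Syngr1, a synaptic vesicle protein, the lysosomal transporter Spns1 and Eva1b changed by -0.92, -0.87, -0.94 and -0.83.

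Interferon-stimulated genes were the list with the most rises. Interferons induce these genes, whose products sense and restrict viruses. Of 43 tested, 27 were measured with at least 50 counts per library. Efficiency rose in 5 and fell in none, RNA fell in 8 and rose in 1, and footprints rose in 4 and fell in none. The median efficiency change was 0.49 beside 0.19 in footprints and -0.22 in RNA (0.71, 0.33 and -0.30 with library totals), and 26 of the 27 lay above the coding median. Against the coding median the list stood at 0.58, with a range of 0.53 to 0.62 over the alternatives. Taken separately in the libraries numbered 1 and those numbered 2, scaled by library totals, this difference had a standard deviation of 0.095. Ddx58, the RNA sensor RIG-I, fell from 12.2 and 11.6 to 6.33 and 7.07 CPM in RNA and rose from 23.1 and 22.1 to 34.6 and 39.3 CPM in footprints. The 2 genotypes did not overlap in either assay, and efficiency rose by 1.54 ± 0.14 (adjusted p = 0.0143). Ifi27 was at 27.04 and 22.9 CPM in SCR against 17.5 and 15.8 CPM in KO RNA and at 66.5 and 67.99 against 91.2 and 97.3 CPM in footprints, with an efficiency change of 1.07. Herc6, a ubiquitin ligase, rose in efficiency by 0.54, where RNA fell and footprints were not called. Parp14, Parp9, Irf9 and Oas1a, chosen here after their values were seen, had changes of 1.004, 1.03, 0.996 and 1.25 that did not pass (adjusted p = 0.0626, 0.0898, 0.0706 and 0.0658).

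Among 11 measured genes of antigen presentation on MHC class I, no efficiency call was made in the reported edgeR fit or by limma voom. DESeq2 called 2 higher, and 3 were higher at an unadjusted p under 0.05 in the reported fit. Of the 11 genes, RNA fell in 4 and footprints in 3. Tap1, a subunit of the peptide transporter, fell from 3.30 and 3.18 to 1.21 and 0.940 CPM in RNA and from 38.8 and 41.7 to 22.8 and 22.8 CPM in footprints, with an efficiency change of 0.76 (adjusted p = 0.0527). B2m, the light chain of these molecules, was at 106 and 105 CPM in SCR against 73.7 and 78.5 CPM in KO RNA, and its footprints at 2013 and 2164 against 2054 and 1872 CPM overlapped. Efficiency was called higher in 6 alternative fits for Tap1 and in 4 for B2m. In the authors' deposited table both were higher with an adjusted p below 0.05.

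Part of the amino acid stress response had lower efficiency in the KO cells, 7 of 28 genes measured. ATF4 is a transcription factor whose own mRNA is translated under stress through upstream reading frames, and its targets import and make amino acids. Of the 28, Atf4 included, efficiency rose in none, RNA rose in 11 and footprints fell in 7. Atf4 rose from 151 and 142 to 218 and 206 CPM in RNA, with footprints at 177 and 192 CPM in SCR against 167 and 178 CPM in KO. Its efficiency change was -0.63 ± 0.094 (adjusted p = 0.0231), led by RNA. Slc7a5, Slc7a11 and Slc7a1, 3 amino acid transporters, changed by -0.68, -0.72 and -0.83 in efficiency. Slc7a11 rose in RNA from 24.3 and 25.7 to 31.6 and 31.8 CPM and fell in footprints from 332 and 384 to 285 and 268 CPM. The list's median efficiency change was -0.39, and -0.17 with library totals.

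Among 15 mRNAs known for inhibitory upstream reading frames, which take ribosomes before the main frame, efficiency fell in 4. Besides Atf4 these were Ifrd1 (-0.67, led by RNA), Ppp1r15b (-0.81), a subunit of the phosphatase of eIF2, and Mdm2 (-0.54), the ubiquitin ligase of p53. A deposited list of translated reading frames was used to ask how often such frames were listed. At least one upstream or overlapping upstream frame was listed for 36.4% of the 9493 coding genes. The share was 37% in the 637 genes with lower efficiency and 43% in the 114 with higher efficiency. In the genes with lower efficiency it was 41.9% where footprints led, 40% where RNA led and 35% in the 431 not separated. In those with higher efficiency it was 50% of 8, 33.3% of 45 and 49.2% of 61 in the same order. A frame is easier to find on a gene with more footprints, and median footprint levels were 64.2 CPM in the genes that fell and 47.4 CPM in those that rose, against 34.3 CPM over coding genes. The part of that level in the shares was not tested.

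Of 19 measured p53 targets, efficiency fell in 6, and footprints fell in 7 and rose in 1. Cdkn1a, the cell cycle inhibitor p21, was at 171 and 172 CPM in SCR against 109 and 117 CPM in KO footprints with RNA at 129 and 125 against 136 and 125 CPM. Its efficiency changed by -0.64 ± 0.086 (adjusted p = 0.0205), led by footprints. Phlda3, an inhibitor of AKT, and Zmat3, an RNA-binding protein, changed by -1.11 and -0.89. The glucose transporter Slc2a1, at 289.6 and 299 CPM in SCR against 216 and 203 CPM in KO footprints, was the only efficiency call among 26 genes of hypoxia and glycolysis (-0.53). In 25 genes of cholesterol synthesis Srebf2, their transcription factor, changed by -0.39 and the isomerase Idi1 rose by 0.47. Of 13 iron genes Cp rose and 3 fell in efficiency. Ftl1, the ferritin light chain, was at 463 and 397 CPM in SCR against 246 and 273 CPM in KO footprints and at 2080.2 and 2092 against 2748 and 2496 CPM in RNA, an efficiency change of -1.06 ± 0.14 (adjusted p = 0.0205). Steap3, a metalloreductase, changed by -0.58. The median efficiency change was -0.31 in the p53 targets and -0.22 in the iron genes, or -0.097 and -0.0015 with library totals. The median of all coding genes was then 0.13.

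Most histone genes measured had more mRNA, and fewer had lower efficiency. Of 35 measured genes of replication-dependent histones, RNA rose in 25 and fell in none, efficiency fell in 10 and rose in none, and footprints rose in 2 and fell in 3. The medians were 0.52 in RNA, 0.0037 in footprints and -0.46 in efficiency, or 0.44, 0.14 and -0.24 with library totals. H1f4, a linker histone, rose in RNA from 526 and 522 to 685 and 650.0 CPM and fell in footprints from 232 and 214 to 178 and 186 CPM, with an efficiency change of -0.64 ± 0.088 (adjusted p = 0.0205). H2bc4, H2ac21 and H2bc9 changed in efficiency by -0.82, -0.71 and -0.55. Histone genes are near-identical copies of each other, so their single values are uncertain. In 44 genes of DNA replication RNA rose in 13, and efficiency fell in 4 (9.09%, against 6.78% of all genes described). These were Cdt1 (-0.66), Pold2 (-0.47), Pold1 (-0.44) and Mcm7 (-0.35). In 36 genes of mitosis none was called in efficiency in the reported edgeR fit or by limma voom. DESeq2 called 3 higher and 1 lower, and 3 were higher and 4 lower at an unadjusted p under 0.05 in the reported fit. Espl1 and Aurkb, of smallest p, had changes of -0.36 and -0.23 (adjusted p = 0.0683 and 0.0967), and Espl1 was called in 3 alternative fits.

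Of 76 nuclear genes of the respiratory chain, RNA rose in 20, efficiency fell in 5 and footprints fell in 3. That is 6.58% in efficiency and 3.95% in footprints, against 6.78% and 9.74% of all genes described. Uqcrc1, a subunit of complex III, was at 229.7 and 224 CPM in SCR against 308 and 270.0 CPM in KO RNA and at 405 and 393 against 330.0 and 327 CPM in footprints. Uqcr11, Ndufa13 and Atp5j2 changed by -0.77, -0.72 and -0.63 in efficiency. The list's median was -0.34, or -0.13 with library totals, and 65 of 76 lay below the coding median. The 13 mitochondrially encoded genes, translated by the mitochondrion's own ribosomes, had a median of 0.30, or 0.51 with library totals. No gene of this list was called in the reported edgeR fit or by limma voom. DESeq2 called 1 of the 13 higher, and 1 was higher at an unadjusted p under 0.05 in the reported fit. Of these mt-Nd4 and mt-Nd5 had changes of 0.57 ± 0.24 and 0.47 ± 0.19 (adjusted p = 0.248 and 0.230). Of 37 proteasome genes RNA rose in 18 and efficiency fell in 4 (10.8%), Psmc3 (-0.44), Psmb4 (-0.46), Psmb6 (-0.61) and Psmc2 (-0.34). Their footprints were not called in either direction. Upf1, the helicase of nonsense-mediated decay, rose from 214 and 224 to 304 and 295 CPM in RNA, with footprints at 92.1 and 87.8 against 84.7 and 84.4 CPM and an efficiency change of -0.54. Rbm8a, of the exon junction complex, fell in efficiency (-0.56), and no other of the 19 decay factors was called. These 2 calls are 10.5% of the list. Odc1, the first enzyme of polyamine synthesis, rose from 200.3 and 207 to 305 and 280.3 CPM in RNA, and its footprints at 45.8 and 41.4 against 41.7 and 45.01 CPM overlapped, an efficiency change of -0.53 led by RNA. Among 20 selenoproteins Selenoi and Txnrd2 changed by -0.75 and -0.49, and among 12 genes of MAPK feedback and immediate early response Ier3 changed by -0.73. The calls are 10% and 8.33% of these lists.

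**Figure D5:**
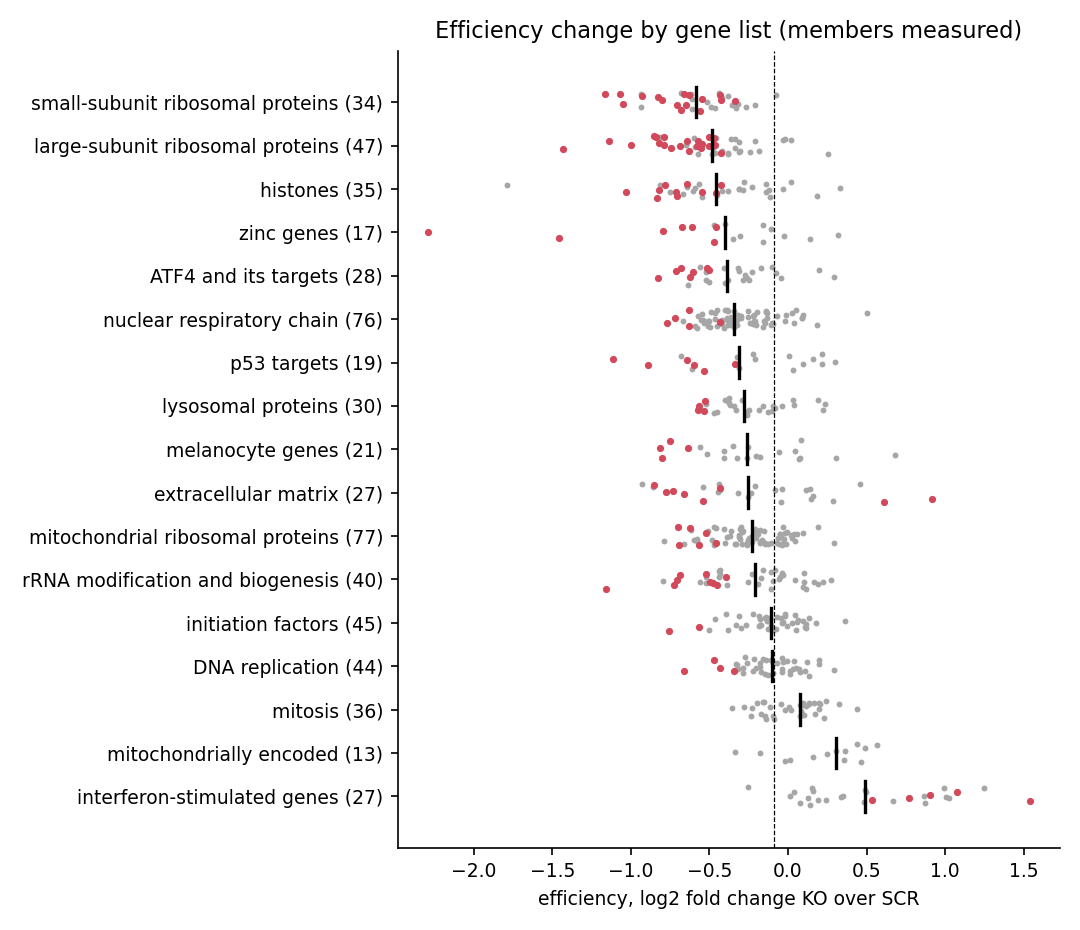
Efficiency change, log2 KO over SCR, of the measured genes of 17 lists, each point a gene, with called genes in red and the list median as a black bar. The dashed line is the median of all coding genes, -0.09. Ribosomal proteins and histones have medians between -0.59 and -0.46, and interferon-stimulated genes a median of 0.49.

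Some genes were called in the same direction in both assays and were not called in efficiency, though the sizes differed in some. Besides Col4a1, Hapln1, a link protein of matrix, fell from 15.6 and 16.1 to 3.38 and 3.60 CPM in RNA and from 56.8 and 57.6 to 18.2 and 16.5 CPM in footprints, with an efficiency change of 0.46 ± 0.11 (adjusted p = 0.0645) that was called in 3 alternative fits. Lrp1, an endocytic receptor, fell from 127 and 127 to 64.4 and 65.1 CPM in RNA and from 1261 and 1230.2 to 704 and 713 CPM in footprints. Lama5, a laminin chain, changed by -0.83 in RNA and -0.87 in footprints, and its efficiency change was -0.038 ± 0.074 (adjusted p = 0.920). Col28a1, a collagen chain, changed by -2.21 in RNA and -1.51 in footprints, with an efficiency change of 0.70 ± 0.16 (adjusted p = 0.0528) that was called in 7 alternative fits. Cd82, Adamts4, Entpd2 and Septin4 fell in both assays, with changes of -1.58, -0.79, -1.62 and -1.94 in RNA and -1.27, -0.98, -1.38 and -1.48 in footprints. Dcaf8l rose in both, by 0.90 in RNA and 0.96 in footprints. Among 12 measured ligands for T cells, natural killer cells and myeloid cells none was called in efficiency in the reported edgeR fit or by DESeq2 or limma voom. In the reported fit 1 was higher and 1 lower at an unadjusted p under 0.05. Lgals9, a galectin, rose by 0.53 in footprints and Pvr, a ligand of immune checkpoint receptors, changed by -0.47, with efficiency changes of 0.39 and -0.34 (adjusted p = 0.108 and 0.211). The efficiency of Lgals9 was called higher in 3 alternative fits.

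The 794 genes that are not coding in RefSeq or had no match, 544 of them pseudogenes, held 60 of the lower and 5 of the higher calls. None of those 60 was led by footprints and 16 were led by RNA. The minimum of 50 counts left out 12924 of the tested genes, with 93 lower and 64 higher calls. Of these, 1653 were coding with a mean of at least 50 counts, with 28 lower and 24 higher calls. Just inside the minimum, at a lowest count of 50 to 54, 2 of 115 coding genes were called, and just outside, at 45 to 49, 3 of 130. In the authors' deposited table of efficiency, 1488 of the 10287 genes had an adjusted p below 0.05, of which 219 were higher and 1269 lower in KO. The authors' deposited table gave 809 of the 816 genes called here in the same direction with its adjusted p below 0.05, and none in the opposite direction, from the same libraries.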

How the data were processed

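Ribosome footprints and input RNA of B16-F10 cells were counted per gene. Per the submitters' processing notes StringTie 2.1.7 and STAR 2.7.10a were used with the GRCm39 build, and their roles are not stated. The authors deposited expected counts per gene and library as whole numbers, read here as estimated counts that were not normalized. KO columns carry the name POOL in the files, a reading by elimination. The authors' deposited table of efficiency gives for each genotype the ratio of footprints to RNA, and for each gene the log2 of the fold change, a raw and an adjusted p-value. The deposited list of reading frames names a gene and a type for each frame. For both, no tool is given in the sources used here.

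Counts were fitted in R 4.3.3 with edgeR 4.0.16 over all 8 libraries: TMM scaling, a filter on expression, one dispersion trend for both assays, and quasi-likelihood F tests with 4 residual degrees of freedom. Efficiency was the genotype by assay interaction, footprint and RNA changes came from the same fit, and the leading assay from the sum of the 2 changes. Efficiency therefore shares its libraries with both. Adjusted p-values (Benjamini-Hochberg) cover the 23211 genes tested, with a threshold of 0.05. The fit was also run on simulated counts drawn from its dispersion trend, without spread of single genes around the trend and with equal dispersion in both assays. That setting is simpler than these data, so it is no support for the calls. Gene types came from RefSeq (GRCm38.p6) by symbol or synonym, which matched 10136 of the 10287 genes.

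The genes, lists and rules were chosen with earlier results of these data known. Named genes were Mettl5 and Trmt112, and among called genes without a predicted name, whose KO ratios lay apart from the SCR ratios, the 10 largest rises and falls of each leading assay. Added to these were up to 10 genes called in opposite ways and up to 10 called alike in both assays, by smallest p, and per list up to 4 called genes, otherwise 2 as values. Some list members outside this rule (Rps28, Rpl37a, Rpl37, Rpl41, Rpl4, Rpl10, Mt2) were named after their values were seen, and some genes that the rule takes are not reported here. Alternatives were other scalings, filters and tools (DESeq2 1.42.0, limma 3.58.1 voom), a replicate block, and each library left out. The single-cell and T-cell receptor samples were not used here.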

Additional observations from a re-analysis of the deposited data

How the results depend on the processing

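The 816 efficiency calls (119 higher, 697 lower) stayed within 1.5 times under DESeq2's size factors, TMM within each assay, a robust fit, no filter on expression and minimums of 20 or 100 counts. The 2 other minimums reuse the reported fit. The direction of all 130 called named genes was the same under the 22 alternatives. These genes were chosen on the same libraries with KO and SCR ratios apart, so that agreement is not separate support. DESeq2 gave 1730 calls (405 higher, 1325 lower; 326 led by footprints, 305 by RNA) and 1906 footprint calls. Fitting only the genes described gave 1999 (619 and 1380; 360 and 434), 2343 footprint calls and 3310 RNA calls. Fitting only coding genes, an alternative chosen after seeing the data, gave 1336 (459 higher; 235 and 269). limma voom gave 387 (44 and 343; 54 led by RNA), and with a variance weight per assay, also chosen after seeing the data, 371 (42 and 329; 54 led by RNA). Library totals gave 910 higher and 232 lower, the robust fit 180 higher, and no filter 29 higher, 56 led by RNA and 838 RNA calls. The cause of these differences was not tested.

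Same-numbered libraries did not deviate together (r of -0.038 to 0.074 between groups, over genes), so the numbers were not shown to pair them. With the replicate number as a replicate block, 313 genes were called (42 higher, 271 lower; 59 led by footprints, 43 by RNA). With a replicate block within genotype, which pairs the footprint and RNA library of one number, edgeR called 0 in efficiency, in either direction or led by either assay, with 835 higher and 2402 lower at an unadjusted p under 0.05, 28 in footprints and 108 in RNA. This fit leaves fewer residual degrees of freedom.

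Leaving out one library gave 0 to 944 efficiency calls, 0 to 76 higher and 0 to 886 lower, 0 to 205 led by footprints and 0 to 116 led by RNA, 629 to 1167 footprint calls and 109 to 1662 RNA calls, with an arm of 1 library assumed to vary like the others. The efficiency change of Mettl5 was not called under any alternative, at 0.036 to 0.38. List medians relative to the coding median changed sign for DNA replication (-0.050 to 0.0076), initiation factors, hypoxia and glycolysis, MHC class I, polyamine genes, immune ligands, and markers of fibroblasts and endothelium, and kept it in the other lists. The KO footprint libraries were the shallowest, at 14555963 and 21366608 counts, and leaving one out gave 590 or 944 efficiency calls. What depth limits was not tested otherwise.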
